A study of Homo sapiens with 6 samples.

Results

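G0S2 is a small protein that binds and inhibits adipose triglyceride lipase, the enzyme encoded by PNPLA2, and it was examined here together with 9 genes that act on the same lipase or on lipid droplets. The 10 genes were G0S2, PNPLA2, ABHD5, LIPE, MGLL, PLIN2, PLIN3, HILPDA, DGAT1 and DGAT2, out of 63677 gene identifiers in the count table. G0S2 was chosen by its measured fold change in these same libraries, being lower after silencing of RBM3, so its values are given as a description and without a test. The other 9 were listed for what they do. Of the 10 genes, 9 had enough counts to be analysed, and HILPDA had no counts in any library.

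The cells were T24, an established human bladder cancer cell line labelled as grade 3, and all libraries came from this single line. One group of 3 libraries, called siRBM3, came from cells that received a mixture of siRNAs against RBM3, an RNA-binding protein. The control group of 3 libraries received a non-targeting siRNA. Cells of both groups were kept in serum-free medium with a lipid transfection reagent and siRNA at a final 25 nM for 4.5 h, were returned to full medium, and were harvested on the next day. The RNA samples for sequencing were prepared in triplicate, and the study's general statement on its cell experiments is that they were repeated independently. Whether this holds for the sequenced libraries is not said, so the tests measure the spread between these libraries, which may be technical. The control replicates are numbered 1, 3 and 5 and those of siRBM3 3, 4 and 5, and values are given in this order throughout.

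A lipid droplet is a store of triacylglycerol and sterol esters wrapped in a phospholipid monolayer and coat proteins. Its triacylglycerol is taken apart in order by adipose triglyceride lipase (PNPLA2), hormone-sensitive lipase (LIPE) and monoglyceride lipase (MGLL), each of which releases a fatty acid. ABHD5, also known as CGI-58, switches the first lipase on, while G0S2 and HILPDA switch it off. PLIN2 and PLIN3 belong to the perilipin family of coat proteins, and DGAT1 and DGAT2 carry out the last step of triacylglycerol synthesis. G0S2 was first described in lymphocytes leaving quiescence, from which it has its name.

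The sequences before the start sites of G0S2 and ABHD5 are shown because these genes encode the inhibitor and the activator of the same lipase. Both also had lower levels, scaled for library size, in the siRBM3 libraries. Each holds the 250 bases 5′ of the start in RefSeq on GRCh38.p14, plus strand, and for ABHD5 the bases lie before the first listed of its 3 starts. Capitals mark the letters TATAA, the core of a TATA box.
G0S2, chr1:209675162-209675411: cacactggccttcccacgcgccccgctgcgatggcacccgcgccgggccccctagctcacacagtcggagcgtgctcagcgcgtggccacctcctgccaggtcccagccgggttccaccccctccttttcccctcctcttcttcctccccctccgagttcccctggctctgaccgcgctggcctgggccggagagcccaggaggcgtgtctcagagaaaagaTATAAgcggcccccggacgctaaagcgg
ABHD5, chr3:43690620-43690869: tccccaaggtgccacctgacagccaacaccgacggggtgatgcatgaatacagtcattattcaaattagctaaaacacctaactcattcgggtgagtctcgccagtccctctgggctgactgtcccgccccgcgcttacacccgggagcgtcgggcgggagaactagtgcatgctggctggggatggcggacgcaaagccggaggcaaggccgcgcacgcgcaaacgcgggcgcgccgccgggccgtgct

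Both strands were searched for TATAA, for CCAAT (the CCAAT box), for the E-box CACGTG and for the nuclear receptor half-site AGGTCA, and none of these motifs contains another. In the G0S2 window TATAA began 28 bases before the start on the plus strand, and the other motifs were not found. No motif of the set was found in the ABHD5 window. Among the 27305 genes with such a window, taking the first listed start of each, TATAA was found in 19.6%, CCAAT in 33.0%, CACGTG in 6.49% and AGGTCA in 12.1%. Windows were listed for 6 of the 10 genes and not for MGLL, HILPDA, DGAT1 and DGAT2. PLIN2 held TATAA and CACGTG, PNPLA2 held AGGTCA, and LIPE and PLIN3 held CCAAT. These matches describe letters only.

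The libraries held between 23603992 and 45098612 counts each, with a share of counts on mitochondrial genes of 1.63% to 9.40%. The deepest library, siRBM3 replicate 3, also had the highest mitochondrial share, and the next highest was 4.15% in siRBM3 replicate 4. Levels are given as CPM, the counts scaled to a common library size with the TMM factors of edgeR. RBM3 itself had 225, 368 and 301 CPM in the control and 54.1, 90.1 and 58.4 CPM in the siRBM3 libraries, all lower where the label says it was silenced. Epithelial keratins were abundant, with KRT7 at 3167 ± 70.5 CPM (SD, n = 3) in control cells, whereas CDH1 was below 1 CPM in all libraries. Of 7 urothelial markers only GATA3 and UPK2 passed the filter on low counts, and KRT5, KRT20 and most uroplakin genes were near 0. The 6 epithelial markers summed to 5065 to 5870 CPM in control and 4207 to 4305 CPM in siRBM3 libraries, and the 7 urothelial markers to 11.9 to 14.1 CPM and 15.7 to 16.1 CPM. Of 5 adipocyte markers ADIPOQ and LEP were at 0 in all libraries, PLIN1 and CIDEC were below 1 CPM, and FABP4 made up nearly the whole sum of 6.58 to 13.4 CPM in control and 12.9 to 31.4 CPM in siRBM3 libraries. Immune markers summed to 2.56 to 3.37 CPM and 2.29 to 2.75 CPM. The 5 fibroblast and endothelial markers with a match summed to 38.6 to 44.5 CPM and 46.7 to 52.3 CPM, most of it from CDH5. The part of these differences in the results was not tested.

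In the control libraries G0S2 (ENSG00000123689) was the most abundant per length of the 9 transcripts with counts, and in the siRBM3 libraries it was not. The gene lies on the plus strand of chromosome 1 (209848757 to 209849735, GRCh37, the build of all gene positions given here), has 2 exons of 876 bases in all, and none of its exon bases overlaps those of another gene. G0S2 stood at 57.6, 75.5 and 76.8 CPM in the control libraries. After RBM3 silencing it stood at 30.8, 27.0 and 19.0 CPM. All 3 siRBM3 libraries lay below all 3 control libraries, and the highest siRBM3 value was that of the library with the high mitochondrial share. The means were 70.0 ± 10.7 CPM (SD, n = 3) and 25.6 ± 6.0 CPM (SD, n = 3), which is 2.72-fold lower in siRBM3 cells by the fitted log2 fold change of -1.45 (standard error 0.19). Leaving out single libraries gave log2 fold changes between -1.60, without siRBM3 replicate 3, and -1.28. In bulk RNA such as this, fewer cells with a transcript and less transcript per cell cannot be told apart. The counts behind these values were 1671, 1973 and 2040 in the control and 1264, 684 and 472 in the siRBM3 libraries.

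**Figure D1:**
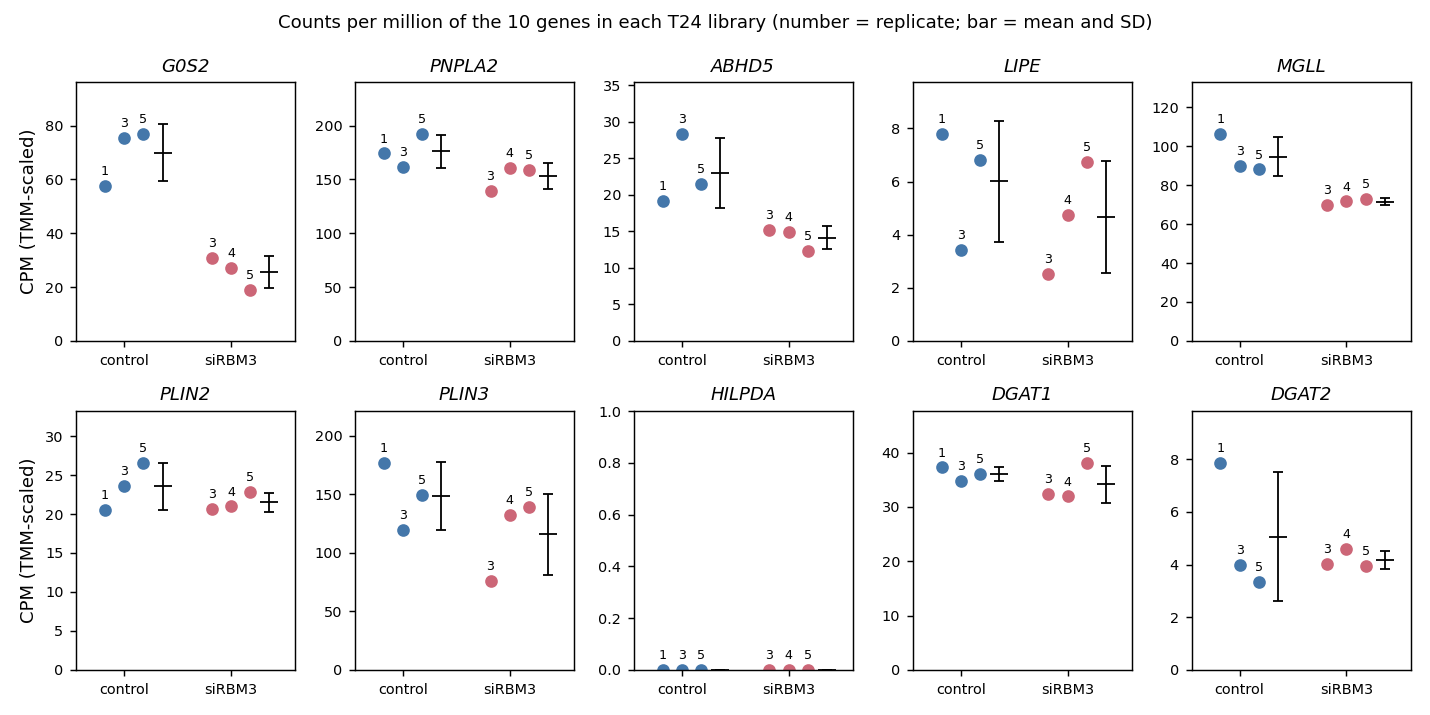
CPM of each of the 10 genes (vertical axes from 0, a separate scale per gene) in the control (blue) and siRBM3 (red) libraries; each point is a library with its replicate number, and the bar at its right is the mean with the SD of 3. For G0S2, PNPLA2, ABHD5 and MGLL every red point lies below every blue point, for HILPDA all points are at 0, and for the other 5 genes the groups overlap.

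The groups were compared for the other members with the quasi-likelihood test of edgeR over the 15099 genes that passed its filter, with Benjamini-Hochberg adjustment over all of them. Calls required an FDR under 0.01 together with a 1.5-fold change in either direction, the thresholds used in the study. None of the 15099 genes was called (0%), and therefore none of the members. This included RBM3 itself, whose log2 fold change of -2.14 had an FDR of 0.082. No gene tested had a lower FDR, a value that the adjustment can give to several genes at once. RBM3 had an FDR of 3.9e-14 in DESeq2, so 0 calls in edgeR do not show that no gene changed. DESeq2, the tool of the study, called 159 of 13068 genes (1.22%), of which 75 were lower (0.574%), and limma-voom called 0 genes. The study itself reported more genes in both directions at these thresholds, and the reason for the difference was not tested. DESeq2 and limma-voom likewise called 0 of the 8 members tested. At the weaker rule of an unadjusted p under 0.05 in edgeR, siRBM3 cells had 990 genes higher (6.56%) and 993 genes lower (6.58%), and 2 of the 8 members tested, ABHD5 and MGLL, were lower and 0 were higher. These were also the members under this p in DESeq2 and limma-voom. The groups did not overlap, with siRBM3 lower, in 3 of the 8 (ABHD5, MGLL and PNPLA2) and in 9.93% of all genes tested, and with siRBM3 higher in 0 of the 8 and in 9.98% of all genes. All 8 had a log2 fold change below 0, as did 51.5% of all genes, and their median was -0.32 against -0.01 over all genes. Without siRBM3 replicate 3 the median of the 8 was -0.13, and without control replicate 1 it was -0.21 with 7 of the 8 below 0.

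Of these 8 members ABHD5 (ENSG00000011198; chromosome 3, 43731600 to 43775863, plus strand), the activator of the lipase, had the lowest log2 fold change. It had 19.2, 28.3 and 21.5 CPM in the control and 15.2, 14.9 and 12.3 CPM in the siRBM3 libraries. The siRBM3 libraries were all lower than the lowest control library, control replicate 1. The means were 23.003 ± 4.76 CPM and 14.1 ± 1.56 CPM (SD, n = 3 each), 1.62-fold lower in siRBM3 cells. This was a log2 fold change of -0.70 (standard error 0.17, 95% interval -1.10 to -0.30), with an unadjusted p of 0.0035 and an FDR of 0.174 in edgeR. DESeq2 gave an FDR of 0.0179, also above the threshold of 0.01. Leaving out single libraries gave log2 fold changes between -0.82 and -0.52, and the unadjusted p in edgeR did not exceed 0.0149. Only 2.26% of the exon bases of ABHD5 overlap another gene, ANO10 on the opposite strand, which had between 820 and 1219 counts in a library.

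PNPLA2 (ENSG00000177666; chromosome 11, 818914 to 825573, plus strand), the lipase itself, had 174, 162 and 192 CPM in the control libraries. In the siRBM3 libraries it had 139, 161 and 159 CPM. The siRBM3 values were the lower ones, but control replicate 3 and siRBM3 replicate 4 differed by less than the spread within either group. On the log2 scale the PNPLA2 difference was -0.20 (standard error 0.10, 95% interval -0.44 to 0.03), with an unadjusted p of 0.0843 and an FDR of 0.455 in edgeR. The whole of this interval lies within the 1.5-fold threshold, which is 0.58 on the log2 scale in either direction. Without siRBM3 replicate 3 the log2 fold change was -0.14. Of the exon bases of PNPLA2, 10.5% overlap ENSG00000255108 on the opposite strand, which had between 23 and 35 counts in a library.

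The ratio of ABHD5 to PNPLA2 sets the activator against its lipase within a library, so that it does not depend on the scaling between libraries. On the log2 scale of CPM, not corrected for length, it was -3.18, -2.51 and -3.16 in the control and -3.19, -3.43 and -3.68 in the siRBM3 libraries. Control replicate 3 stood above the other libraries, and control replicate 1 and siRBM3 replicate 3 had nearly the same ratio. The means were -2.95 ± 0.38 and -3.43 ± 0.24 (SD, n = 3 each), a difference of -0.48 (two-sided exact permutation p = 0.1, which is the lowest possible with 3 against 3; 0.3 after Benjamini-Hochberg adjustment over 3 ratios). Without control replicate 3 the difference was -0.27. As a description, the per-length ratio of G0S2 to PNPLA2 was 1.45, 2.04 and 1.75 in the control and 0.966, 0.735 and 0.524 in the siRBM3 libraries. Per length of merged exons, the inhibitor transcript thus exceeded the lipase transcript in all 3 control libraries and in none of the siRBM3 libraries. The lower ratios in the siRBM3 libraries include the fall by which G0S2 was picked. With the length of the longest transcript, the control ranges of both genes overlapped.

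HILPDA (ENSG00000135245; chromosome 7, 128095903 to 128098472, plus strand), the other inhibitor of the lipase, is listed at 0 in all 6 libraries. By counting error alone a count of 0 allows up to 0.0665 to 0.127 CPM, depending on the library. However, HNRNPUL2, NDUFB8 and NDUFA9, which were looked up after the values of HILPDA had been seen and encode a nuclear ribonucleoprotein and subunits of respiratory complex I, are also listed at 0 in all libraries. Such genes are used by nearly all cells, so a 0 in this table does not show that a gene is silent. In the annotation used here 13.2% of the exon bases of HILPDA overlap HILPDA-AS1, listed at 0 as well, and ENSG00000273184, which had 5 to 11 counts. No level or ratio is therefore given for HILPDA.

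MGLL (ENSG00000074416; chromosome 3, 127407905 to 127771033, minus strand), the lipase of the final step, was at 106, 89.6 and 88.0 CPM in the control libraries. It was at 69.8, 71.6 and 73.1 CPM in the siRBM3 libraries. The siRBM3 libraries were close to one another and all below the controls, of which replicate 1 was the highest. The means were 94.6 ± 10.1 CPM and 71.5 ± 1.63 CPM (SD, n = 3 each), or -0.40 on the log2 scale (standard error 0.10, 95% interval -0.64 to -0.17). In edgeR the unadjusted p was 0.0040 and the FDR 0.176, and in DESeq2 the FDR was 0.0549. With each library left out it lay between -0.45 and -0.32, and no exon base of MGLL overlaps another gene.

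LIPE (ENSG00000079435; chromosome 19, 42905666 to 42931540, minus strand), which encodes hormone-sensitive lipase, was low and varied within both groups. It had 7.79, 3.44 and 6.82 CPM in the control and 2.53, 4.74 and 6.74 CPM in the siRBM3 libraries. Replicates numbered 3 were the lowest of each group, and the groups overlapped. In edgeR the log2 fold change of -0.38 (standard error 0.40, 95% interval -1.31 to 0.55) had an FDR of 0.741. It was -0.07 without siRBM3 replicate 3 and -0.15 without control replicate 1, but -0.74 without siRBM3 replicate 5 and -0.66 without control replicate 3. The interval lies on both sides of 0, and 9.69% of the exon bases overlap LIPE-AS1 on the opposite strand, which had between 125 and 224 counts.

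Of the droplet coats, PLIN2 (ENSG00000147872; chromosome 9, 19108373 to 19149288, minus strand), which coats droplets in most cell types, differed little between the groups. It had 20.5, 23.6 and 26.6 CPM in the control and 20.6, 21.0 and 22.9 CPM in the siRBM3 libraries. The siRBM3 values lay within the range of the controls, and the fitted log2 fold change was -0.13 (standard error 0.13, 95% interval -0.44 to 0.17, FDR 0.721 in edgeR). PLIN3 (ENSG00000105355; chromosome 19, 4838353 to 4867706, minus strand), a coat protein that moves between the cytosol and young droplets, had 177, 119 and 149 CPM in the control and 75.8, 132 and 139 CPM in the siRBM3 libraries. The lowest of these values was that of siRBM3 replicate 3, and the other 2 siRBM3 libraries fell among the controls. On the log2 scale the PLIN3 difference was -0.36 (standard error 0.24, 95% interval -0.91 to 0.19, FDR 0.571 in edgeR), and it was -0.13 without siRBM3 replicate 3. Of the PLIN3 exon bases 18.3% overlap ENSG00000267484 on the opposite strand, which had 0 to 16 counts. The log2 ratio of PLIN2 to PLIN3 was -2.64 ± 0.41 in control and -2.38 ± 0.44 in siRBM3 libraries (SD, n = 3 each), a difference within the spread of replicates (two-sided exact permutation p = 0.6; 0.9 after Benjamini-Hochberg adjustment). This difference of 0.27 was 0.01 without siRBM3 replicate 3, 0.03 without control replicate 1 and 0.42 without control replicate 3.

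The enzymes of the last synthesis step were likewise not separated by group. DGAT1 (ENSG00000185000; chromosome 8, 145538247 to 145550573, minus strand) had 37.3, 34.8 and 36.1 CPM in the control and 32.4, 31.9 and 38.1 CPM in the siRBM3 libraries. Its highest value was in siRBM3 replicate 5, and the log2 fold change was -0.08 (standard error 0.11, 95% interval -0.34 to 0.18, FDR 0.811 in edgeR). DGAT2 (ENSG00000062282; chromosome 11, 75470557 to 75512580, plus strand) had 7.86, 3.98 and 3.35 CPM in the control and 4.02, 4.58 and 3.95 CPM in the siRBM3 libraries. Only control replicate 1 stood apart, and the direction rested on it. Fitted on all libraries it was -0.28 on the log2 scale (standard error 0.32, 95% interval -1.0 to 0.44, FDR 0.761 in edgeR), and it was 0.19 without control replicate 1. The log2 ratio of DGAT1 to DGAT2 was 2.92 ± 0.61 and 3.01 ± 0.23 (SD, n = 3 each; two-sided exact permutation p = 0.9; 0.9 after Benjamini-Hochberg adjustment). Of the DGAT1 exon bases 10.9% overlap other genes, among them the well expressed HSF1 on the opposite strand with 3442 to 5868 counts, and of the DGAT2 exon bases 6.83% overlap genes with at most 2 counts.

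**Figure D2:**
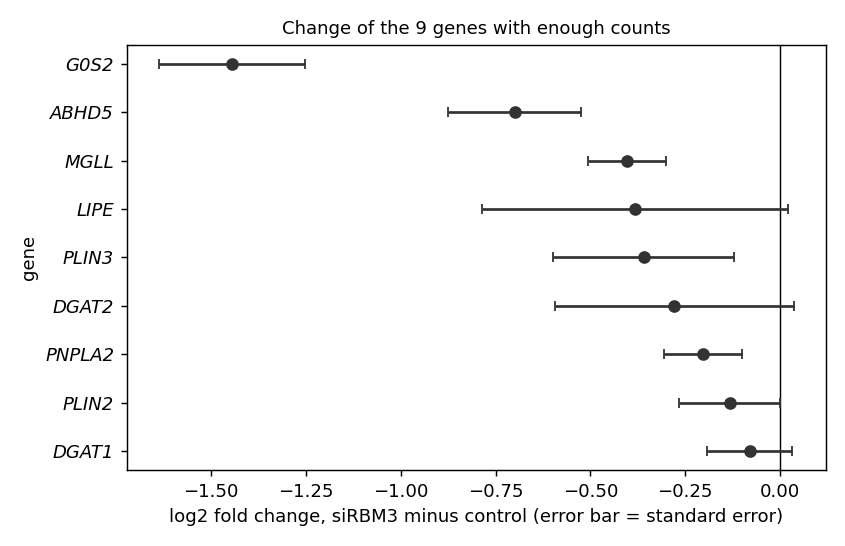
Log2 fold change of siRBM3 minus control (horizontal axis) for the 9 genes with enough counts, ordered by size, with the standard error as the bar. G0S2, which was picked for this value, is at -1.45, ABHD5 at -0.70 and MGLL at -0.40, and the bars of LIPE and DGAT2 cross 0 with those of DGAT1 and PLIN2.

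Levels were compared between genes as CPM per kilobase of merged exons. In the control libraries G0S2 was at 79.9 ± 12.3, PLIN3 at 54.2 ± 10.5 and PNPLA2 at 45.95 ± 3.99 CPM per kilobase (SD, n = 3 each). The ranges of PLIN3 and PNPLA2 overlapped, and the lowest G0S2 value of 65.7 was only just above the highest PLIN3 value of 64.6. A step down followed to DGAT1 at 8.73 ± 0.30 and MGLL at 8.38 ± 0.89, which overlapped each other. Below them were PLIN2 at 4.70 ± 0.61, ABHD5 at 3.05 ± 0.63, LIPE at 1.17 ± 0.44 and DGAT2 at 0.641 ± 0.31 CPM per kilobase, of which only LIPE and DGAT2 overlapped. In the siRBM3 libraries G0S2 was at 29.3 ± 6.85, below PLIN3 at 42.3 ± 12.7 and PNPLA2 at 39.9 ± 3.09 CPM per kilobase. The ranges of G0S2, 21.7 to 35.2, and PLIN3, 27.7 to 50.9, overlapped there, while the lowest PNPLA2 value was 36.4. The remaining genes kept their order. ABHD5 transcripts made up 5.602%, 8.90% and 5.68% of the PNPLA2 level per length in the control libraries and 5.53%, 4.71% and 3.95% in the siRBM3 libraries. With the length of the longest transcript in place of merged exons, MGLL came to 22.2 and PLIN2 to 12.4 CPM per kilobase in control cells. Both were then above DGAT1 at 9.87. By this length PLIN3, at 66.6 ± 12.9, and PNPLA2, at 64.6 ± 5.60, both overlapped G0S2 in control cells.

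**Figure D3:**
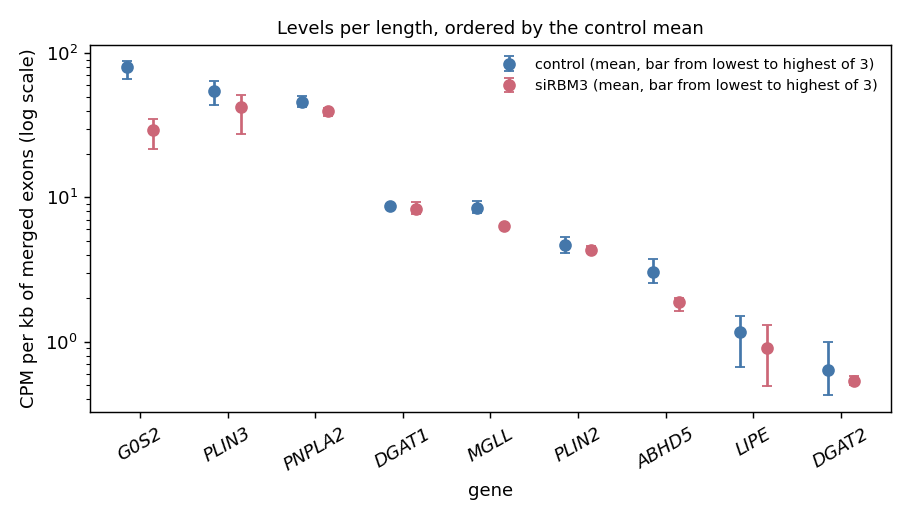
Mean CPM per kilobase of merged exons (log axis) of the 9 genes with counts in control (blue) and siRBM3 (red) cells, ordered by the control mean, with bars from the lowest to the highest of 3 libraries. G0S2 is at 79.9 in control and 29.3 in siRBM3 cells, where it lies below PLIN3 and PNPLA2.

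The lipid metabolism around these members was followed through 8 lists with 102 genes in all, of which 76 were tested. Of these, 37 were higher and 39 lower, and their median log2 fold change of -0.01 equalled that over all genes. By the edgeR test 0 of the 76 were called at the FDR of 0.01 and the 1.5-fold threshold, and 6 had an unadjusted p under 0.05, which is 7.89% against 13.1% of all genes tested. Of these 6, 4 were higher and 2 lower. The groups did not overlap in 12 of the 76, or 15.8%, against 19.9% of all genes.

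Of 11 genes of lipolysis and lipase turnover, all tested, 0 had an unadjusted p under 0.05 and 7 were below 0, with a median log2 fold change of -0.03. The most abundant were FAF2, whose product helps extract proteins from droplets and the endoplasmic reticulum for degradation, at 140 ± 11.2 and 139 ± 12.6 CPM, and LIPA, the lysosomal acid lipase, at 91.3 ± 7.66 and 101 ± 9.92 CPM in control and siRBM3 cells (SD, n = 3 each). Of 19 genes of droplet coats and droplet formation 12 were tested, with a median of 0.07. RAB18, a small GTPase found on droplets, was lower, with 67.3, 95.8 and 82.8 CPM in the control and 64.9, 64.8 and 62.1 CPM in the siRBM3 libraries (log2 fold change -0.36, standard error 0.13, unadjusted p = 0.0255 and FDR 0.307 in edgeR). LPCAT2, an enzyme that makes phosphatidylcholine of the droplet surface, was higher, with 4.38, 4.40 and 3.35 CPM against 6.63, 5.57 and 5.77 CPM (log2 fold change 0.57, standard error 0.19, unadjusted p = 0.0153 and FDR 0.263 in edgeR). The groups did not overlap for either gene. ACSL3 and LPCAT1 were the most abundant of this list, at 173 ± 7.17 and 80.6 ± 44.2 CPM in control and 168 ± 6.04 and 84.4 ± 16.8 CPM in siRBM3 cells. BSCL2, which encodes the droplet assembly protein seipin, is listed at 0 in all libraries, like HILPDA.

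Of 17 genes of glycerolipid and sterol ester synthesis 12 were tested, 0 had an unadjusted p under 0.05, and the median was 0.03. AGPAT3 and AGPAT2, acyltransferases of an earlier step of the pathway that ends with DGAT1 and DGAT2, had log2 fold changes of 0.06 and 0.00. Of 20 genes of fatty acid uptake, binding and activation 11 were tested, with a median of -0.01. FABP4, a fatty acid carrier protein that is also among the adipocyte markers, had 6.03, 12.4 and 13.0 CPM in the control and 31.3, 19.4 and 12.3 CPM in the siRBM3 libraries. Its log2 fold change of 1.01 (standard error 0.39, unadjusted p = 0.0327 and FDR 0.330 in edgeR) was the largest of the 76 genes, but the groups overlapped and it was 0.60 without siRBM3 replicate 3. SLC27A1, a fatty acid transporter, was higher without overlap, at 30.03 ± 3.83 and 38.0 ± 3.48 CPM (log2 fold change 0.34, standard error 0.13, unadjusted p = 0.0326 and FDR 0.330 in edgeR). ACSL4 and DBI, the most abundant of the list, had log2 fold changes of -0.16 and 0.03.

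Of 19 genes of fatty acid oxidation 17 were tested, with a median of -0.07. ECI1, a mitochondrial enzyme for unsaturated fatty acids, was lower without overlap, at 66.3 ± 4.12 and 54.6 ± 4.03 CPM (log2 fold change -0.28, standard error 0.10, unadjusted p = 0.0241 and FDR 0.302 in edgeR). ACADVL and HADHA, the most abundant, had log2 fold changes of -0.09 and -0.01, and CPT1B is listed at 0. None of 8 tested genes among 9 for lipid-sensing nuclear receptors and their co-activators had an unadjusted p under 0.05 in edgeR, and their median was -0.04. PPARG, a receptor known to drive G0S2 in fat cells, was at 143 ± 6.82 and 137 ± 6.22 CPM, and its partner RXRA at 143 ± 11.2 and 128 ± 9.60 CPM. Of 5 PPAR targets outside the members 3 were tested, with a median of 0.16. PDK4, a kinase that holds back pyruvate oxidation, was higher without overlap but scarce, at 0.603 ± 0.20 and 1.18 ± 0.14 CPM (log2 fold change 0.97, standard error 0.31, unadjusted p = 0.0135 and FDR 0.254 in edgeR). For ANGPTL4, an inhibitor of lipoprotein lipase, the log2 fold change of -0.57 had a standard error of 0.33 and an FDR of 0.505 in edgeR. With single libraries left out the unadjusted p in edgeR reached 0.0605 for LPCAT2, 0.0935 for RAB18, 0.118 for SLC27A1, 0.114 for FABP4 and 0.0960 for ECI1, and stayed below the threshold for PDK4 at 0.0499. The 2 further proteins reported to bind G0S2, nucleolin (NCL) and BCL2, had log2 fold changes of -0.01 and 0.19 for their genes, with FDR values of 0.986 and 0.800 in edgeR.

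**Figure D4:**
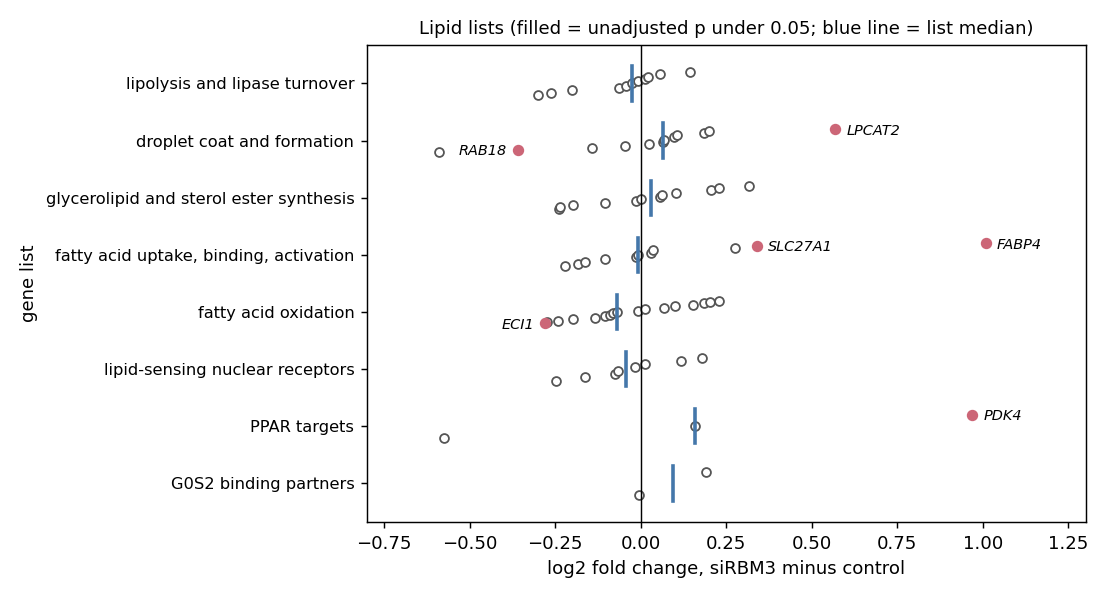
Log2 fold change of siRBM3 minus control (horizontal axis) of the tested genes of 8 lipid lists (rows); filled and named points have an unadjusted p under 0.05 in edgeR, and the blue line is the median of each list. The medians lie between -0.07 and 0.16, and RAB18 and ECI1 are named on the lower side and LPCAT2, SLC27A1, FABP4 and PDK4 on the higher side.

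The nearest tested genes on chromosome 1 were examined beside G0S2. LAMB3 (ENSG00000196878; 209788215 to 209825770, minus strand), which encodes a laminin chain and ends 22987 bases before G0S2, had 235, 285 and 301 CPM in the control and 173, 197 and 171 CPM in the siRBM3 libraries. The groups of LAMB3 did not overlap. In both genes control replicate 1 was the lowest control library, whereas among the siRBM3 libraries LAMB3 was highest in replicate 4 and G0S2 in replicate 3. LAMB3 differed by -0.60 on the log2 scale (standard error 0.12, unadjusted p = 0.00078 and FDR 0.112 in edgeR, 0.0038 in DESeq2), so that it was called by DESeq2 only. The next tested gene after G0S2, C1orf74, starts 102818 bases further on and differed by -0.17 on the log2 scale (standard error 0.20, FDR 0.771 in edgeR). HSD11B1-AS1, an antisense RNA whose span includes G0S2 without sharing exon bases with it, was near 1 CPM, at 1.14 ± 0.16 and 0.677 ± 0.36 CPM (log2 fold change -0.70, standard error 0.41, FDR 0.514 in edgeR). The strand setting of the counting is not given.

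The pattern of G0S2 over the 6 libraries was compared with that of 15098 other tested genes by Pearson's r of the log2 CPM, as a description. Since the groups of G0S2 do not overlap, part of any r is the difference between groups by which G0S2 was picked, and r is therefore also given over deviations from the group means. For genes named as extremes of r, that choice also favours an r far from 0 within groups. Their r within groups is thus no independent check. The highest values were those of HACD1, an enzyme of fatty acid elongation (r = 0.996, 0.966 within groups), VPS37B, a subunit of a sorting complex of endosomes (0.990, 0.929), ZNF296 (0.990, 0.952), SNRPB, a core protein of spliceosomal particles (0.988, 0.899), and GDF15, a secreted stress cytokine (0.987, 0.907). HACD1 had 5.82, 6.58 and 7.005 CPM in the control and 4.56, 4.27 and 3.75 CPM in the siRBM3 libraries, with a log2 fold change of -0.62. GDF15 had 214, 290 and 254 CPM in the control and 160, 139 and 120 CPM in the siRBM3 libraries, with a log2 fold change of -0.85. The lowest values were those of MUC20-OT1 (-0.992), ENSG00000269728 (-0.991) and PPP3CA, the catalytic subunit of calcineurin (-0.989). An r of at least 0.95 was found for 74 genes and an r of -0.95 or below for 81 genes. Among the members ABHD5 came nearest to G0S2, with r = 0.941 (0.730 within groups) at place 107, and MGLL had r = 0.776 but -0.704 within groups. For PNPLA2, PLIN2, PLIN3, DGAT1, LIPE and DGAT2 r lay between 0.611 and 0.0633. Within groups r was 0.132 for PLIN2 and below 0 for the other 5, at -0.316 for PNPLA2, -0.769 for PLIN3, -0.891 for DGAT1, -0.785 for LIPE and -0.480 for DGAT2.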

How the data were processed

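Polyadenylated RNA of T24 cells, 3 control and 3 siRBM3 samples, was sequenced by the authors as stranded single-end libraries. Reads were trimmed by the authors with BBDuk and mapped to GRCh37 with STAR; Picard served to mark duplicates, and the authors deposited unnormalized read counts per Ensembl gene from featureCounts. Not given in the sources used here are the annotation release, the strand setting and the treatment of marked duplicates. Of 63677 identifiers 55665 matched GENCODE 44 mapped to GRCh37, which gave symbols, positions and lengths.

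Genes were kept by filterByExpr (minimum count 10, minimum total 15) and compared with the quasi-likelihood test of edgeR 4.0.16 (robust, TMM factors, Benjamini-Hochberg adjustment over 15099 genes) in R 4.3.3. Alternatives were DESeq2 1.42.0, the tool of the study, voom from limma 3.58.1, other scalings and filters, libraries left out and a replicate block. The main edgeR fit, DESeq2 and voom were tested on simulated data, and the other alternatives were not. Standard errors are the log2 fold change divided by the root of F. Log2 CPM for ratios and correlations used a prior count of 2. Exact permutation tests used scipy 1.17.1; with 3 against 3 they cannot go below p = 0.1.

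The members and lists were chosen with earlier results of these data known. Named were RBM3, the members, in each list up to 4 genes with an unadjusted p under 0.05 and the 2 most abundant, the nearest tested and the overlapping genes, and the genes with the 5 highest and 3 lowest r to G0S2. One gene that this rule takes is not reported here. The planned ratio of HILPDA to PNPLA2 was left out, since HILPDA is listed at 0. Counting limits cover counting error only.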

Additional observations from a re-analysis of the deposited data

How the results depend on the processing

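The log2 fold changes of G0S2, ABHD5, MGLL, PNPLA2, LIPE, PLIN2, PLIN3 and DGAT1 were below 0 under all 14 alternatives, and ABHD5 and MGLL had an unadjusted p under 0.05 under each of them. That of DGAT2 turned to 0.12 with the replicate block and ranged from -0.50 to 0.19 with a library left out, the latter without control replicate 1. The number of genes called was 159 with DESeq2, 279 with no filter, 336 with the replicate block and 0 to 1 with a library left out, the gene being PLSCR1 without control replicate 1. At an unadjusted p under 0.05, library size only gave 611 genes higher and 1130 lower, and the replicate block 1714 and 2031. With a library left out these counts ranged from 672 to 1141 and from 695 to 1325. The members under this p were 4 with the replicate block (PNPLA2 and PLIN3 added) and 3 with no filter (PLIN3 added). With a library left out they were 2 to 3. With the block ABHD5 passed both thresholds and was called (log2 fold change -0.85, FDR 0.0040 in edgeR). With no filter ABHD5 was among the genes called as well (log2 fold change -0.69, unadjusted p = 3.2e-05 in edgeR). Genes of the lipid lists at an unadjusted p under 0.05 were 10 with no filter and 16 with the replicate block. With a library left out they were 3 to 12, with 3 without control replicate 5 and 12 without control replicate 1. The difference in the log2 ratio of DGAT1 to DGAT2 was 0.09 and turned with libraries left out (-0.25 to 0.33), to -0.25 without control replicate 1 and -0.03 without siRBM3 replicate 5. The causes were not tested. Only the numbers 3 and 5 occur in both groups, with correlations of deviations of 0.53 and 0.09 between same-numbered libraries. Whether same-numbered samples were handled together is not stated, and these correlations do not settle it. The block leaves a single residual degree of freedom. With 3 libraries a group, a 1.5-fold fall lies within the 95% intervals of ABHD5, MGLL, LIPE, PLIN3 and DGAT2. A 1.5-fold rise lies within none of these intervals.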
